A study of Mus musculus with 9 samples.

Results

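The mRNA levels of the urea cycle and of the genes that bring nitrogen to it were followed in mouse livers in which autophagy had been removed from hepatocytes, with and without a second mutation in the autophagy receptor p62. The set was chosen by name: Cps1, Otc, Ass1, Asl, Nags, Slc25a15, Slc25a13, Gls2 and Glud1. Each of these 9 genes was found in the table of 24411 genes, and all 9 were among the 11199 genes with enough counts to be tested. The data are poly(A) RNA-seq of 9 livers, in 3 groups of 3, and all 9 mice carried floxed alleles of Atg7, which encodes an enzyme needed to form autophagosomes. The mice were 3 months old and on a C57BL/6 background. The group called cont (Atg7flox/flox) had no Cre. Atg7-KO mice (Atg7flox/flox;Alb-Cre) also carried Cre under the albumin promoter, which is active in hepatocytes, so other cells of the liver keep Atg7. The third group, called S351A here (Atg7flox/flox;Alb-Cre;p62S351A/p62S351A), carried in addition a p62 allele with a serine replaced by alanine. The titles of all 3 S351A samples name this allele, whereas the genotype entries of replicates 2 and 3 name S351A on one allele and S352A or S353A on the other, so the name of the second allele rests on the titles. The study asked what retention of the p62 partner KEAP1 in p62 bodies does to livers that lack autophagy.

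Hepatocytes convert toxic ammonia to urea in the urea cycle, which begins in mitochondria and ends in the cytosol. Most of its enzymes are more abundant in periportal hepatocytes, whereas pericentral hepatocytes next to the central vein capture the remaining ammonia as glutamine. Glutaminase 2 and glutamate dehydrogenase release the ammonia that enters the cycle, and 2 mitochondrial carriers, for ornithine and for aspartate and glutamate, link the compartments.

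Whole-liver Atg7 counts checked the labels. Atg7 lay at 45.1, 57.8 and 42.4 CPM (counts relative to the size of the library, on a scale set by TMM factors) in the cont livers. The level was 30.2, 28.0 and 28.4 CPM in the Atg7-KO livers, and 21.8, 24.8 and 22.2 CPM in the S351A livers. On this scale both Cre groups lay below every cont library, with log2 fold changes of -0.74 and -1.07 and adjusted p = 0.00758 and 0.00319. The call depended on the scale: under total counts Atg7 changed by -0.20 in Atg7-KO (adjusted p = 0.855) and -0.59 in S351A (adjusted p = 0.0639), and in Atg7-KO it was also lost when libraries were scaled without the 20 genes with most counts (-0.38, adjusted p = 0.116) or thinned to the smallest library (-0.80, adjusted p = 0.0619). Hepatocyte markers were abundant throughout, with Alb between 18820 and 71345 CPM. Total counts ranged from 713835 to 15426566 per library, and each of the 3 S351A libraries was smaller than all others, so that depth and the p62 mutation cannot be told apart. The smallest count of any of the 9 genes in the cont, Atg7-KO and S351A groups was 82, 77 and 18, for Nags in each case, and the 9 genes together took 0.214% to 0.647% of a library. By Xist and Y-linked transcripts, replicate 1 of each group was male and replicate 2 female, whereas replicate 3 was male in cont and female in the other groups. Nothing states a sequencing batch.

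Livers that had lost Atg7 had less mRNA of 8 of the 9 genes. A gene was called when edgeR's quasi-likelihood F test gave an adjusted p under 0.05 and the fold change exceeded 1.5. In Atg7-KO against cont, 8 of the 9 genes were called lower, none was called higher, and Glud1 was not called. Scaled by total counts instead, 6 were called lower, without Nags and Slc25a13, and Glud1 was called higher. Of all genes tested, 38% were called in this comparison, 18.1% lower and 19.9% higher. In each of the 8 called genes every Atg7-KO library lay below every cont library, an arrangement found in 24.9% of all genes tested. The median log2 fold change of the 9 genes was -1.26, beside -0.03 for all genes. Summed over the 9 genes, the level was 6954 ± 1811 CPM (SD, n = 3) in cont and 2592 ± 225 CPM in Atg7-KO.

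**Figure D1:**
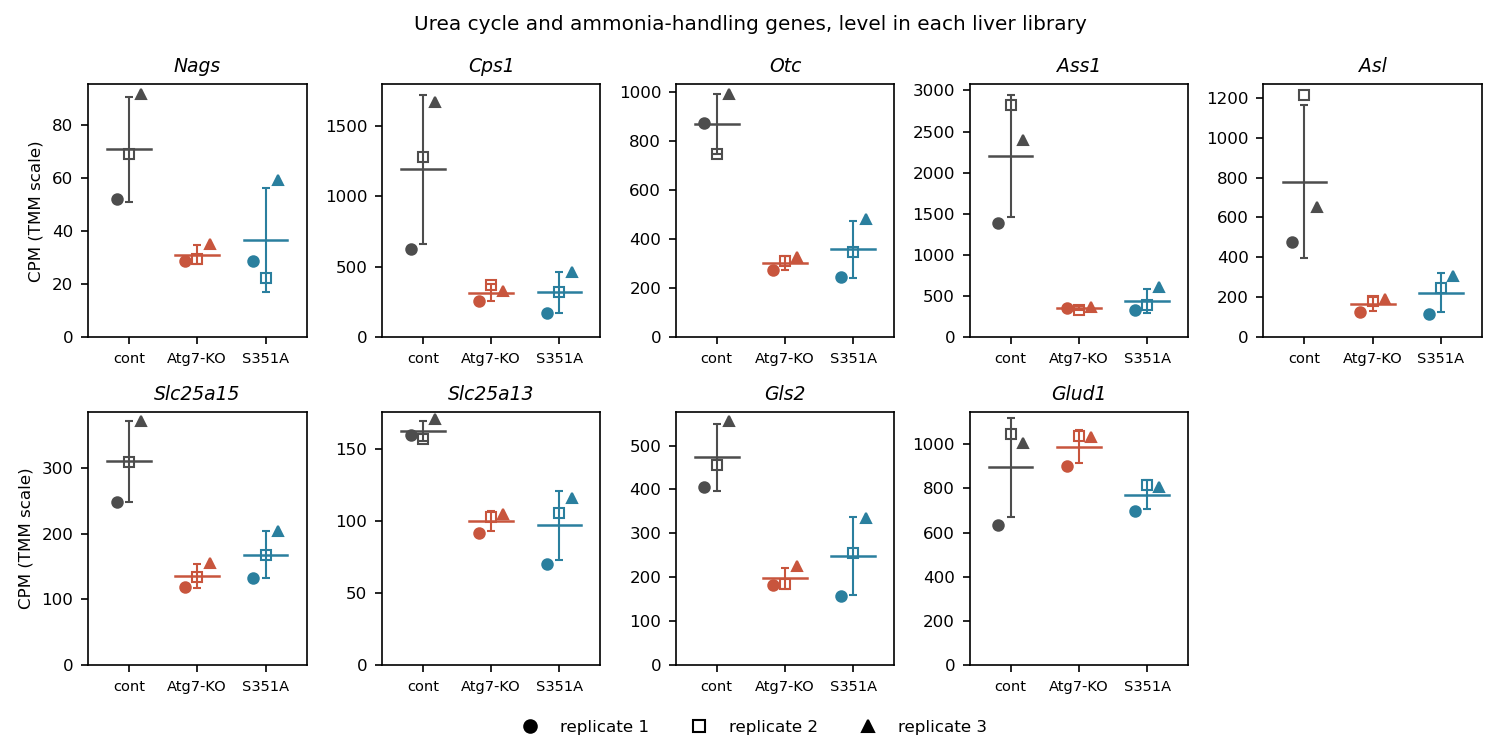
Level of each of the 9 genes in each liver library, in CPM on a linear axis that starts at 0, with the mean (horizontal line) and SD (vertical bar) of the 3 libraries of each group. For every gene except Glud1 the 3 Atg7-KO libraries lie below the 3 cont libraries, and Nags in S351A replicate 3 is the only S351A value of those 8 genes that reaches into the cont range.

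The first steps of the cycle take place in mitochondria. Nags makes N-acetylglutamate, the obligate activator of carbamoyl-phosphate synthetase 1. It was at 52.1, 69.0 and 91.6 CPM in the cont livers and at 28.8, 29.4 and 35.2 CPM in the Atg7-KO livers. The Atg7-KO values lay close together and below all cont values, with a log2 change of -1.21 (SE 0.30, adjusted p = 0.00685), which was -0.65 and not called under total counts (adjusted p = 0.089). Nags was also the least abundant of the 9 genes per length of transcript in every group. It lies on chromosome 11 (mm10, 102145513 to 102149477, plus strand) and overlaps the gene Gm11586 on the opposite strand. The strand setting of the counting is not given in the sources used here, so reads of both genes cannot be told apart. Cps1, on chromosome 1 (67123026 to 67231259, plus strand), encodes carbamoyl-phosphate synthetase 1, which joins ammonia and bicarbonate. Cps1 was measured at 626, 1278 and 1665 CPM in the cont livers and at 254, 370 and 325 CPM in Atg7-KO. The cont livers varied more among themselves than the Atg7-KO livers did, yet the groups did not overlap, and the log2 fold change was -1.91 (SE 0.40, adjusted p = 0.00254). Otc encodes ornithine transcarbamylase, which forms citrulline, and is X-linked (chromosome X, 10252305 to 10321024, plus strand). Its levels were 874, 745 and 990 CPM in the cont livers and 273, 309 and 325 CPM in Atg7-KO. This was a fall to 0.348 of the cont level, with a log2 change of -1.52 (SE 0.26, adjusted p = 0.000813).

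The cytosolic synthase and lyase had the largest falls among the 9 genes. Ass1 (chromosome 2, 31470207 to 31520672, plus strand) encodes argininosuccinate synthase, which brings in the nitrogen of aspartate. It was at 1388, 2825 and 2396 CPM in the cont livers, and at 360, 326 and 371 CPM in Atg7-KO. The level in Atg7-KO was 6.25-fold lower, a log2 change of -2.64 (SE 0.32, adjusted p = 7.76e-05), and the 3 Atg7-KO livers differed little from each other. Asl (chromosome 5, 130011258 to 130029247, minus strand) encodes the lyase that splits argininosuccinate into arginine and fumarate. Its levels of 475, 1212 and 653 CPM in cont compared with 128, 182 and 190 CPM in Atg7-KO. Asl fell 4.69-fold, with a log2 change of -2.23 (SE 0.40, adjusted p = 0.00105).

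Both mitochondrial carriers fell, the ornithine carrier more than the aspartate and glutamate carrier. Slc25a15 (chromosome 8, 22375551 to 22398597, minus strand) encodes the carrier that exchanges ornithine for citrulline. It was at 249, 310 and 373 CPM in the cont livers and at 119, 134 and 156 CPM in Atg7-KO, a log2 change of -1.19 (SE 0.24, adjusted p = 0.00184). Slc25a13 (chromosome 6, 6041218 to 6217173, minus strand) encodes citrin, the liver's main carrier of aspartate out of mitochondria. Slc25a13 was at 160, 157 and 171 CPM in the cont livers and at 92.1, 103 and 105 CPM in Atg7-KO. The cont livers were nearly alike for this gene, and its log2 fold change of -0.70 (SE 0.21, adjusted p = 0.0188) was the smallest of the 8 called genes. The call was lost without any one of the Atg7-KO libraries, with adjusted p between 0.0549 and 0.0866 and log2 changes between -0.75 and -0.65. It was also lost under total counts, where the log2 change was -0.17 (adjusted p = 0.542), and in scaling without the 20 genes with most counts, where it was -0.35 (adjusted p = 0.199).

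The enzymes that release ammonia from glutamine and glutamate differed. Gls2 (chromosome 10, 128194457 to 128210004, plus strand) encodes the liver form of glutaminase. It was at 406, 456 and 556 CPM in the cont livers and at 182, 184 and 226 CPM in Atg7-KO. All Atg7-KO values were below the lowest cont value, and the log2 fold change was -1.26 (SE 0.28, adjusted p = 0.00326). Gls2 overlaps Spryd4 on the other strand, and how reads in the overlap were assigned was not examined. Glud1 (chromosome 14, 34310727 to 34345265, plus strand) encodes glutamate dehydrogenase, which releases ammonia from glutamate. It was at 636, 1045 and 1005 CPM in the cont livers and at 901, 1036 and 1033 CPM in Atg7-KO. These ranges overlapped, and the log2 fold change was 0.14 with a 95% interval from -0.38 to 0.67 (adjusted p = 0.677). The interval lies above that of every one of the other 8 genes apart from Slc25a13, whose interval reaches -0.25.

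**Figure D2:**
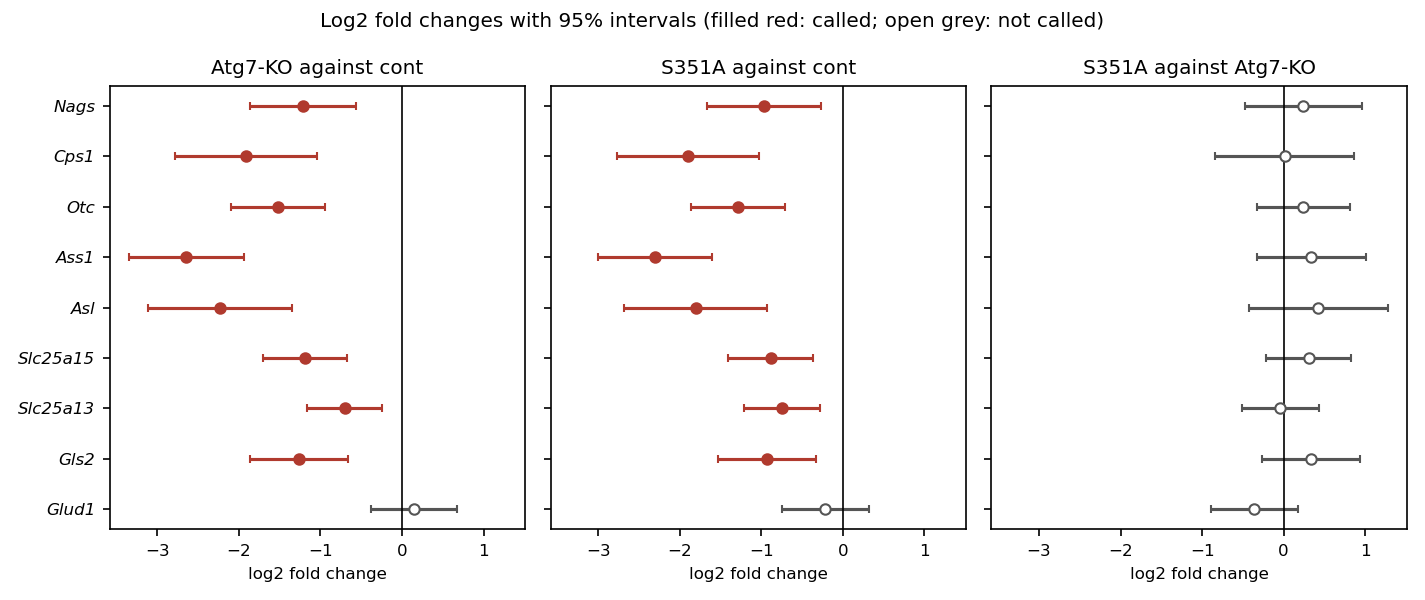
Log2 fold change of each of the 9 genes in the 3 comparisons, with 95% intervals from edgeR's quasi-likelihood fit. Filled red points were called and open grey points were not: 8 genes lie below 0 in both comparisons with cont, Glud1 spans 0 in each comparison, and all 9 intervals span 0 in S351A against Atg7-KO.

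The levels relative to each other do not depend on how libraries are scaled. Glud1 made up 12.7% to 13.1% of the summed CPM of the 9 genes in the cont livers and 37.3% to 38.8% in the Atg7-KO livers. Ass1 moved the other way, from 28.5% to 34.9% in cont to 12.2% to 15.4% in Atg7-KO. Cps1, Otc, Ass1 and Asl together had 5.28, 5.80 and 5.67 times the CPM of Glud1 in cont. In Atg7-KO this ratio was 1.12, 1.15 and 1.17, and in S351A it was 1.25, 1.60 and 2.31, without overlap between any of the 3 groups. The ratio of Ass1 to Cps1 CPM ranged over 1.44 to 2.22 among cont livers, 0.882 to 1.42 among Atg7-KO livers and 1.21 to 1.94 among S351A livers, so that Atg7-KO lay below cont and S351A overlapped both. These ratios were chosen after the levels had been seen and were not tested.

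**Figure D3:**
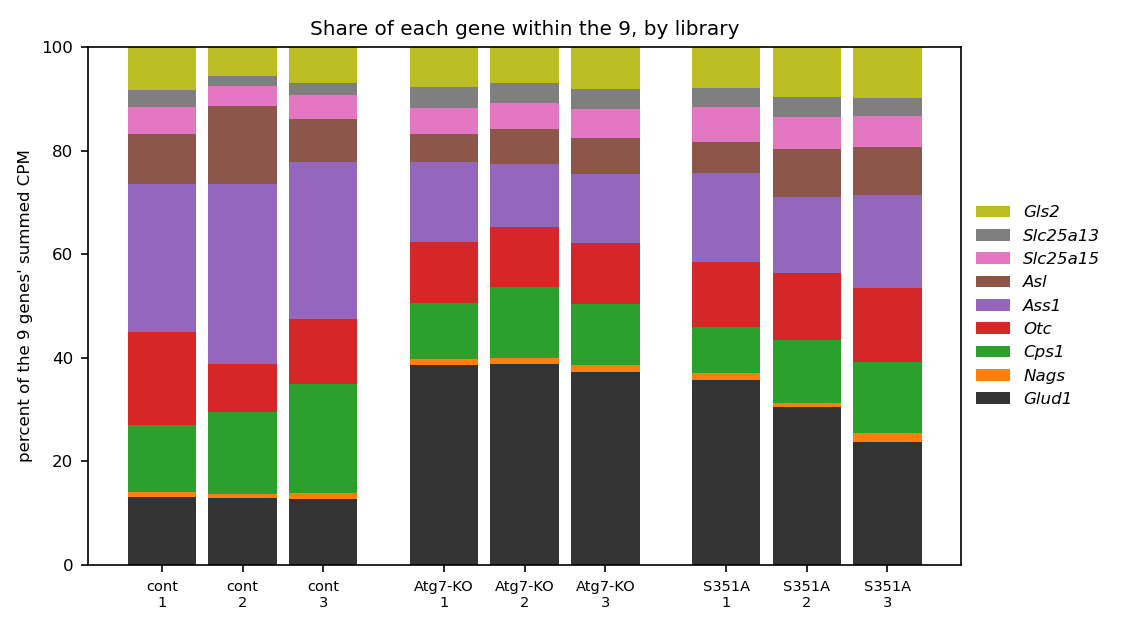
Share of each of the 9 genes in their summed CPM, one bar per library, in percent. The dark segment at the bottom is Glud1, which takes 12.7% to 13.1% of each cont bar, 37.3% to 38.8% of each Atg7-KO bar and 23.8% to 35.7% of the S351A bars.

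Levels divided by the length of a gene's merged exons allow genes to be ordered. In cont the order of mean CPM per kb was Ass1 (912), Cps1 (214), Glud1 (213), Otc (205), Asl (161), Gls2 (136), Slc25a15 (55.2), Slc25a13 (42.9) and Nags (24.99). Ass1 stood above all others without overlap over the 3 livers, whereas each neighbouring pair from Cps1 to Gls2 overlapped. In Atg7-KO, Glud1 (235) came first, followed by Ass1 (146), Otc (71.3) and Cps1 (56.9), and neither Glud1 and Ass1 nor Ass1 and Otc overlapped. In S351A the leading genes were Ass1 (184) and Glud1 (183), which overlapped, and Otc (84.3) lay below both. Nags was last in every group. With the longest transcript as length, Asl rose to rank 2 and Cps1 dropped to rank 5 in cont, with Otc at rank 3 and Glud1 at rank 4.

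RefSeq promoter sequences (GRCm38.p6) were at hand for Otc, Ass1, Nags, Slc25a13, Slc25a15 and Glud1, and not for Cps1, Asl and Gls2. The 250 bases before the start site are shown for a mitochondrial and a cytosolic enzyme that fell (Otc, Ass1), the carrier with the smallest fall (Slc25a13) and the gene that was not called (Glud1), to set their sequence beside their expression. Each runs 5′ to 3′ on the gene's strand, and capitals mark a match to a searched motif. Otc is chrX:10252055-10252304 (plus strand), Ass1 is chr2:31470020-31470269 (plus), Slc25a13 is chr6:6217174-6217423 (minus) and Glud1 is chr14:34310477-34310726 (plus).
Otc: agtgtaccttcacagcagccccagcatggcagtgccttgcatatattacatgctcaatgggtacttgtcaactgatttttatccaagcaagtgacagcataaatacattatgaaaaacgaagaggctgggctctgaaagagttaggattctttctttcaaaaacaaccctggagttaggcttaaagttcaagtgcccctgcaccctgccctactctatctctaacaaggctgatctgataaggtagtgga
Ass1: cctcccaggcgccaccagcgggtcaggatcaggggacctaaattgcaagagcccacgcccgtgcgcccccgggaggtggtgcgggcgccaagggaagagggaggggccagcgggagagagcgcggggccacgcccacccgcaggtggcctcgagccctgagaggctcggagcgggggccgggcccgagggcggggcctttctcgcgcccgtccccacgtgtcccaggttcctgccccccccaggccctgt
Slc25a13: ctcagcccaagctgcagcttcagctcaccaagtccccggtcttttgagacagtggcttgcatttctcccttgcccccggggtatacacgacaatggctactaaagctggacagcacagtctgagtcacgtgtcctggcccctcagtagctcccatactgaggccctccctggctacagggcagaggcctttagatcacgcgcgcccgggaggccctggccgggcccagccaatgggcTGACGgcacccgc
Glud1: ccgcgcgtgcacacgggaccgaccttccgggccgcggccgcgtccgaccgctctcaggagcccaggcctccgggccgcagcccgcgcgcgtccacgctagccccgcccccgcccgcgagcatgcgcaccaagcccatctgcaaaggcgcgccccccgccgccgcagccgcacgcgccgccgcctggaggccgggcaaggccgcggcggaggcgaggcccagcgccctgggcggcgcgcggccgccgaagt
G and C bases made up 43.6% of the Otc sequence, 75.6% of Ass1, 62.8% of Slc25a13 and 82.0% of Glud1, beside a median of 52.4% over 32851 promoters. Exact matches on both strands were sought to letters bound by liver factors and to the TATA box. These were TTGCGCAA and TTGCNNAA for C/EBP, CAAAGTCCA for HNF4A, TGACGTCA and its part TGACG for CREB, the HNF1 motif by its name, TGTTTAC for FOXA, TGACNNNGC for the core of the antioxidant response element, and TATAAA. TTGCGCAA is contained in TTGCNNAA. The only match in the 7 windows of the 6 genes was TGACG in Slc25a13, 13 to 9 bases before the start, and 17.8% of all promoters in the table hold these letters. The other motifs occur in 0.164%, 9.56%, 0.384%, 1.55%, 0.00913%, 3.17%, 10.2% and 12.4% of promoters, in the order TTGCGCAA, TTGCNNAA, CAAAGTCCA, TGACGTCA, HNF1, TGTTTAC, TGACNNNGC and TATAAA. No match says only that these letters are not in the window.

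The same genes were low in the livers with mutated p62. In S351A against cont, 8 of the 9 genes were called lower and Glud1 again was not, where 28.6% of all genes tested were called, 13% lower and 15.6% higher. In 7 of the 8 every S351A library lay below every cont library, as in 18.4% of all genes tested, and in Nags the ranges overlapped. The median log2 fold change was -0.97, beside -0.03 for all genes, and became -0.45 under total counts and -1.51 without S351A replicate 3. Both comparisons use the same cont livers, so their values are given side by side and were not counted as independent.

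Ass1 had the largest fall here too. It was at 334, 390 and 611 CPM in the S351A livers, with a log2 fold change against cont of -2.31 (SE 0.32, adjusted p = 0.000376). Cps1 followed with 172, 323 and 462 CPM and -1.90 (SE 0.40, adjusted p = 0.00443). Asl was at 115, 247 and 308 CPM with -1.80 (SE 0.40, adjusted p = 0.00577), and Otc was at 246, 347 and 480 CPM with -1.28 (SE 0.26, adjusted p = 0.00385). These 4 cycle enzymes, all below the lowest cont value in each S351A liver, stayed called under every alternative that was run. The remaining 4 calls depended on single libraries and on the scaling. Slc25a15 was at 133, 168 and 205 CPM with -0.88 (SE 0.24, adjusted p = 0.0154), Slc25a13 at 70.1, 106 and 116 CPM with -0.75 (SE 0.22, adjusted p = 0.0222), and Gls2 at 156, 256 and 334 CPM with -0.93 (SE 0.28, adjusted p = 0.0245). Nags was at 28.7, 22.4 and 59.2 CPM, so that replicate 3 lay above the lowest cont liver, with -0.97 (SE 0.32, adjusted p = 0.0406). Without S351A replicate 1, or without S351A replicate 2, all 4 of these calls were lost, with log2 changes of -0.83 to -0.57 and of -0.97 to -0.73. Without cont replicate 3, Nags (-0.74, adjusted p = 0.115) and Gls2 (-0.81, adjusted p = 0.0572) were lost and 6 genes were called. Nags was also lost without any one of the Atg7-KO libraries, which share in the estimate of spread, with adjusted p between 0.0565 and 0.0588 and a log2 change that stayed at -0.98 to -0.97, with 10 counts required in every library (0.0534), and after thinning to the smallest library, where its log2 change was -0.73 (0.117). All 4 calls were lost under total counts, in scaling without the 20 genes with most counts and with the 6 compared libraries alone, with adjusted p between 0.0754 and 0.386. Their log2 changes were -0.64 to -0.26 under these scalings and -0.89 to -0.67 with the 6 libraries alone. Glud1 was at 696, 816 and 805 CPM, within the cont range, with a log2 change of -0.21 and a 95% interval from -0.75 to 0.32.

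The p62 mutation itself was compared on the Atg7-deleted background. In S351A against Atg7-KO, edgeR's test called 0 of the 9 genes, and 0 of them had an unadjusted p under 0.05, where 6.6% of all genes tested did. DESeq2 and limma-voom also called 0 of the 9. Of all 11199 genes, 1 was called, or 0.00893%. The estimates were above 0 for 7 genes, beside 51.2% of all genes, and below 0 for Slc25a13 and Glud1, with a median of 0.24. For Cps1 the log2 fold change was 0.01 (95% interval -0.84 to 0.86), so a change of 1.5-fold in either direction is inside the interval. For Otc it was 0.24 (-0.33 to 0.81), for Ass1 0.34 (-0.33 to 1.01) and for Asl 0.43 (-0.43 to 1.28). The narrowest intervals among the 9 genes, those of Slc25a13 (-0.51 to 0.43) and Slc25a15 (-0.21 to 0.82), still spanned about 1 log2 unit. These intervals do not show that the levels were equal. Glud1 was the only gene of the 9 whose groups did not overlap, each S351A liver lying below each Atg7-KO liver, as was the case in 9.23% of all genes tested. Its log2 fold change was -0.36 (95% interval -0.89 to 0.17, adjusted p = 0.855).

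The S351A livers differed more among themselves than the Atg7-KO livers. The coefficient of variation of the 9 genes had a median of 32.9% in S351A, 11.4% in Atg7-KO and 25.2% in cont. Over all genes tested, log2 CPM correlated between replicates at 0.882 to 0.911 in S351A, whose libraries were the smallest. These correlations were 0.964 to 0.974 in Atg7-KO and 0.928 to 0.934 in cont. S351A replicate 1 was the lowest of its group in 8 of the 9 genes, all but Nags, and replicate 3 was the highest in 8, all but Glud1. Atg7-KO replicate 1 was the lowest in 8 genes and cont replicate 1 in 7. The lowest livers of each group were thus the male replicate 1, but cont replicate 3, also male, was the highest in 6 genes, and with so few livers sex and the individual liver cannot be told apart. Without S351A replicate 3 the median log2 fold change of the 9 genes in S351A against Atg7-KO was -0.035 instead of 0.24. Over the 9 libraries the 8 genes other than Glud1 had log2 CPM that correlated pairwise with Pearson's r from 0.815 to 0.979, and within groups, after removing the group means, from 0.424 to 0.931. Glud1 correlated with the others at 0.01 to 0.36, and at 0.23 to 0.84 within groups. These values are descriptions over 9 libraries that share depth and scaling.

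Other tested genes with a mean of at least 10 CPM over the 9 libraries numbered 8806. Among them, those whose log2 CPM most resembled the median of the 9 genes were Bhmt, Itch, Acy3, Pex16 and Cyp8b1. Their Pearson's r over the 9 libraries was between 0.986 and 0.992. Bhmt encodes the methyltransferase that uses betaine to remethylate homocysteine, Itch a ubiquitin ligase, Acy3 an aminoacylase, Pex16 a protein needed to form peroxisomes and Cyp8b1 the sterol hydroxylase that makes cholic acid. Of the 9 genes themselves, Gls2, Slc25a15 and Otc were closest to their own median, at 0.990, 0.988 and 0.974, and Glud1 was the farthest at 0.181.

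Glutamine synthetase, the pericentral route of ammonia removal, fell as well. Glul, which encodes it, was at 802, 1525 and 859 CPM in the cont livers, at 186, 228 and 192 CPM in Atg7-KO and at 342, 365 and 499 CPM in S351A. The log2 fold change was -2.39 in Atg7-KO against cont (SE 0.30, adjusted p = 7.83e-05) and -1.40 in S351A against cont (SE 0.29, adjusted p = 0.00369). Gls2 had 0.299 to 0.647 times the CPM of Glul in the cont livers, 0.806 to 1.17 times in Atg7-KO and 0.456 to 0.701 times in S351A, a ratio also chosen after the levels had been seen. Of 13 listed genes of ammonia release and nitrogen transfer, 12 were tested. In Atg7-KO against cont none rose and 7 fell, Glul, Gpt, Got1, Sds, Sdsl, Aspg and Car5a, with a list median of -1.36, where 18.1% of all genes tested were called lower. In S351A against cont none rose and 4 fell, Glul, Got1, Gpt and Aspg, with a median of -0.92, where 13% of all genes were called lower. Aspg, an asparaginase, fell the most there, with a log2 change of -1.70 (SE 0.29, adjusted p = 0.00112). Car5a, a mitochondrial carbonic anhydrase, had -1.46 (adjusted p = 0.00337) in Atg7-KO against cont and -0.53 (adjusted p = 0.235) in S351A against cont.

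**Figure D4:**
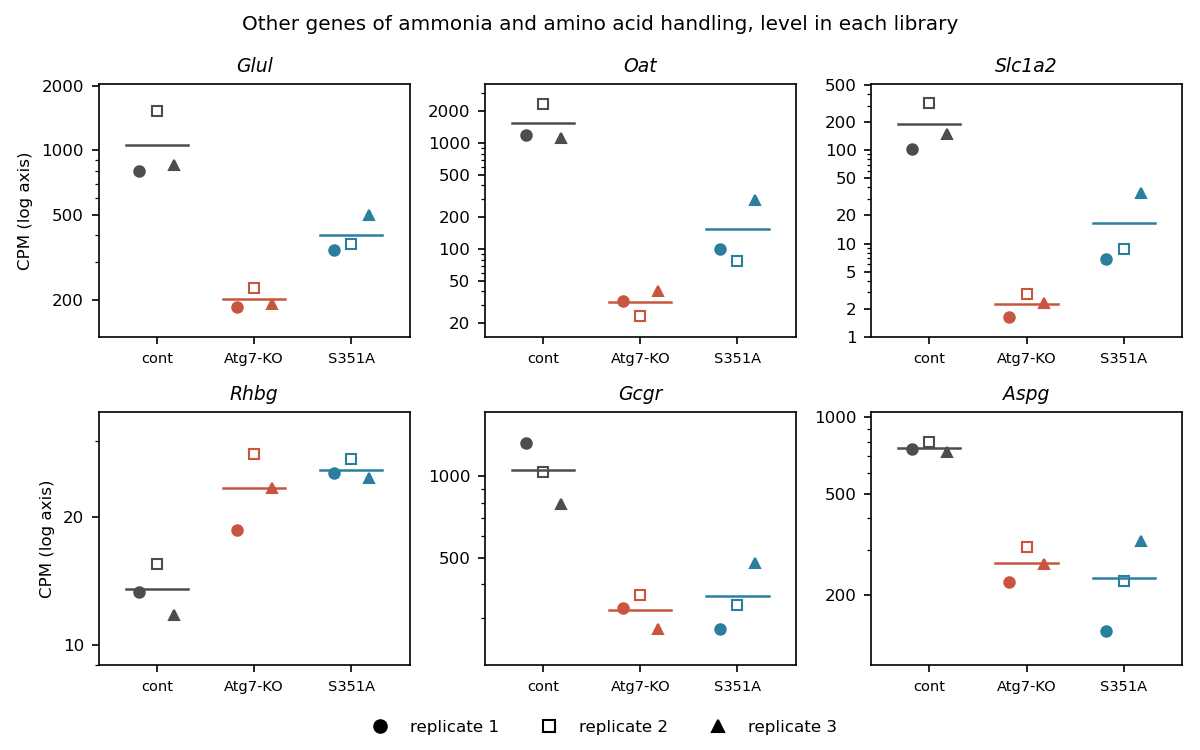
Level of 6 other genes of ammonia and amino acid handling in each library, in CPM on log axes, with the mean of each group as a horizontal line. Glul, Oat, Slc1a2, Gcgr and Aspg are lower and Rhbg higher in the Atg7-KO and S351A livers than in the cont livers, and for Glul, Oat and Slc1a2 the S351A livers lie above the Atg7-KO livers.

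Ornithine has a further exit from the cycle through ornithine aminotransferase. Oat, which encodes it, was at 1197, 2371 and 1125 CPM in the cont livers, at 32.2, 23.3 and 40.7 CPM in Atg7-KO and at 101, 78.2 and 290 CPM in S351A. The log2 fold change was -5.61 in Atg7-KO against cont (SE 0.55, adjusted p = 1.71e-05) and -3.32 in S351A against cont (SE 0.49, adjusted p = 0.00055). In the list of 12 genes of ornithine, arginine and proline metabolism, 10 were tested. In Atg7-KO against cont, 5 fell (Oat, Prodh2, Prodh, Agmat and Aldh4a1) and Aldh18a1, at a mean of 8.95 CPM in Atg7-KO, rose, where 18.1% of all genes were called lower and 19.9% higher. The same 5 were called lower in S351A against cont, where 13% of all genes were, and none was called higher.

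Of 14 transporters of ammonia, glutamine, aspartate and basic amino acids, 9 were tested. In Atg7-KO against cont 6 fell and 1 rose, with a median of -1.35, beside 18.1% and 19.9% of all genes. The largest fall was that of Slc1a2, a glutamate transporter found in pericentral hepatocytes, which was at 102, 323 and 148 CPM in the cont livers, 1.62, 2.87 and 2.29 CPM in Atg7-KO and 6.89, 8.69 and 34.6 CPM in S351A. Its log2 fold change was -6.42 in Atg7-KO against cont (SE 0.62, adjusted p = 1.58e-05) and -3.52 in S351A against cont (SE 0.55, adjusted p = 0.000709). The gene that rose was Rhbg, an ammonia channel of the Rhesus family, at 13.3, 15.5 and 11.7 CPM in the cont livers and 18.6, 28.0 and 23.3 CPM in Atg7-KO. The log2 fold change of Rhbg was 0.79 (SE 0.23, adjusted p = 0.0149). The call was lost without cont replicate 3, where the log2 change was 0.66 (adjusted p = 0.0612). Likewise it was lost without Atg7-KO replicate 2 (0.63, adjusted p = 0.0885) or replicate 3 (0.78, adjusted p = 0.0513), and after thinning to the smallest library (0.69, adjusted p = 0.171). In S351A, Rhbg was at 25.3, 27.3 and 24.7 CPM, with a log2 fold change against cont of 0.95 (SE 0.25, adjusted p = 0.0146). This call was lost without cont replicate 3 (0.81, adjusted p = 0.0536) or S351A replicate 2 (0.88, adjusted p = 0.0603). In that comparison 5 transporters fell and Rhbg alone rose, beside 13% and 15.6% of all genes. Slc25a12, the other form of the aspartate and glutamate carrier, had a mean of 7.99 CPM in the cont livers and 8.23 CPM in Atg7-KO, far below Slc25a13, and was not called. Slc25a2, the second ornithine carrier, was too low to test, with at most 5 counts in a library.

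In S351A against Atg7-KO no gene of these lists was called by edgeR's test. The highest estimates were those of Slc1a2, at 2.90 (95% interval 1.33 to 4.46, adjusted p = 0.364), and Oat, at 2.29 (1.23 to 3.34, adjusted p = 0.311). Both rested in part on S351A replicate 3, without which they were 1.80 (adjusted p = 0.67) and 1.48 (adjusted p = 0.55). Glul had 0.99 (0.37 to 1.61, adjusted p = 0.501). In all 3 genes the S351A livers lay above the Atg7-KO livers without overlap, as in 7.67% of all genes tested. DESeq2 called Oat (adjusted p = 0.00172) and Slc1a2 (adjusted p = 0.00527), which edgeR also called when low genes were not filtered out (2.42e-05 and 6.47e-05). A separate list of 12 pericentral markers, without these genes, had 11 estimates above 0 in this comparison and a median of 0.69, beside 0.24 for the 9 genes, 0.02 for 12 periportal markers and 0.01 for all genes. None of the 24 zonal markers was called. An unadjusted p under 0.05 in edgeR's test was found for 7 of the 12 pericentral and 0 of the 12 periportal markers, beside 6.6% of all genes tested.

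A list of 14 genes, all tested, held liver transcription factors, the glucagon receptor and deacylases linked to the urea cycle, and also Keap1 and Nfe2l2, the partners of p62 in the pathway under study. In both comparisons with cont 4 fell (Gcgr, Creb3l3, Sirt3 and Foxa2) and none rose, with medians of -0.42 and -0.45. Of all genes, 18.1% and 13% were called lower in these comparisons. Gcgr encodes the receptor for glucagon, a fasting hormone known to raise the urea cycle enzymes. Gcgr was at 1331, 1042 and 790 CPM in the cont livers, at 326, 363 and 272 CPM in Atg7-KO and at 271, 333 and 478 CPM in S351A, with log2 changes of -1.72 (SE 0.28, adjusted p = 0.000564) and -1.55 (SE 0.28, adjusted p = 0.00192) against cont. Cebpa, whose product binds promoters of several urea cycle genes, had -0.40 (adjusted p = 0.178) and -0.51 (adjusted p = 0.11). Cebpb had -0.40 (adjusted p = 0.41) and -0.27 (adjusted p = 0.617). Hnf4a, a master factor of hepatocytes, had 0.38 (adjusted p = 0.251) and 0.29 (adjusted p = 0.42), and was called higher where libraries were scaled by their totals (adjusted p = 0.0123 and 0.0353) and, in Atg7-KO, where they were scaled without the 20 genes with most counts (0.0265).

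The livers without autophagy also differed from cont in markers of cell types. In both comparisons with cont the hepatocyte, periportal, pericentral, endothelial and erythroid lists fell in their median, as the 9 genes did. The ductular, stellate, macrophage and proliferation lists rose in their median. In bulk liver, fewer hepatocytes and less of an mRNA per hepatocyte cannot be told apart. The counts of markers stand beside 18.1% of all genes called lower and 19.9% called higher in Atg7-KO against cont, and 13% and 15.6% in S351A against cont. In Atg7-KO against cont, 11 of 14 hepatocyte markers fell and none rose, with a median log2 fold change of -1.17, close to the -1.26 of the 9 genes. Their summed level was 71219 to 154980 CPM in the cont livers, 47968 to 55172 CPM in Atg7-KO and 47917 to 62153 CPM in S351A, where also 11 fell against cont. Cont replicate 1 stood apart in these markers, at 71219 CPM beside 154980 and 142977 CPM in the other cont livers. Of 12 periportal markers 8 fell and 1 rose in Atg7-KO against cont, and of 12 pericentral markers 8 fell and none rose. All 8 tested ductular markers of 10 rose in both comparisons with cont, and their summed level went from 76.1 to 129 CPM in cont to 879 to 1293 CPM in Atg7-KO and 798 to 1288 CPM in S351A. The defining ductular genes Krt19 and Epcam were at most 3.81 and 1.08 CPM in cont. Of 10 stellate cell markers 7 rose, of 12 macrophage markers 7 rose and 1 fell, of 8 endothelial markers 1 rose and 3 fell, and of 10 proliferation markers all 9 tested rose in Atg7-KO against cont. In S351A against cont, 7 periportal markers fell and 1 rose, and 5 pericentral markers fell and 0 rose. There 7 stellate, 6 macrophage and 7 proliferation markers rose and 0 fell, and of the endothelial markers 1 rose and 1 fell. Of 7 erythroid markers 3 were tested, of which Hba-a2 and Alas2 fell in both comparisons with cont, and their list's summed level went from 322 to 899 CPM in cont to 93.3 to 204 CPM in Atg7-KO and 152 to 219.8 CPM in S351A. The part of these cells in the levels of the 9 genes was not tested.

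**Figure D5:**
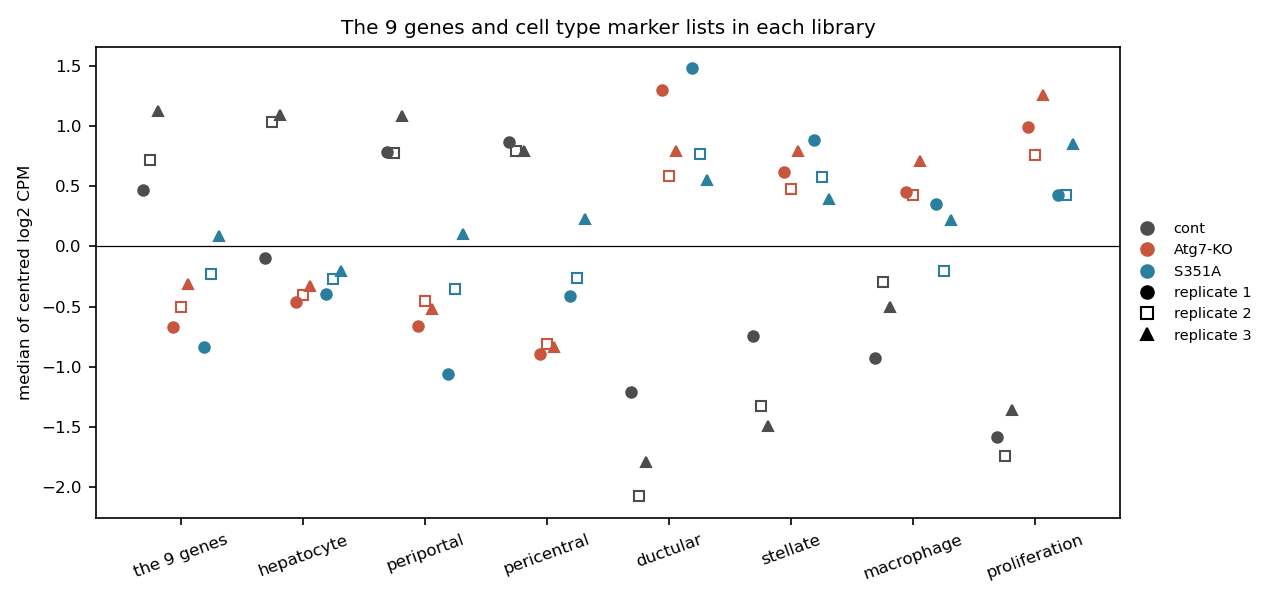
Median of log2 CPM, centred on the mean of the 9 libraries for each gene, over the 9 genes and over marker lists of cell types and proliferation, one point per library. The 9 genes and the hepatocyte, periportal and pericentral lists are highest in the cont libraries, while the ductular, stellate, macrophage and proliferation lists are lowest there.

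Set against the hepatocyte markers of the same library, the 9 genes split. Their summed CPM was 5.22% to 6.83% of the summed hepatocyte markers in cont, 4.84% to 5.13% in Atg7-KO and 4.07% to 5.44% in S351A, so that Atg7-KO lay just below cont and S351A overlapped both. Relative to those markers, Ass1, Asl and Cps1 were lower in each Atg7-KO liver than in each cont liver, with differences of mean log2 ratio of -1.43, -0.98 and -0.66. That is 3 of 9 genes, where 2.36% of all genes tested were lower in every library by this measure. Otc (-0.36), Gls2 (-0.10), Slc25a15 (-0.02), Nags (0.00) and Slc25a13 (0.45) overlapped between the groups. Glud1 was higher in each Atg7-KO liver, by 1.33, near the median of 1.14 for all genes, of which 58.9% were higher in every library. In S351A against cont, Ass1 and Cps1 were lower in every library by this measure (-1.23 and -0.83), where 1.17% of all genes were, and Glud1 was higher (0.88), where 44% were. This ratio was added after the levels had been seen and carries no test.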

How the data were processed

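Per the labels and the study's methods, the authors isolated poly(A) RNA, sequenced 75-base single-end reads, trimmed them with Trim Galore, mapped them with STAR to mm10 and estimated gene levels with RSEM. Versions, annotation and strand setting are not given in the sources used here. The authors deposited expected counts per gene and library, unscaled. In each library 4.40% to 7.75% of values were not whole, and all were rounded.

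edgeR 4.0.16 in R 4.3.3 kept 11199 of 24411 genes (filterByExpr, minimum count 10, minimum total 15), scaled libraries by TMM and fitted 1 quasi-likelihood model to all 9 libraries, which fell into groups by their titles. Columns named WT, LKO and LKOSA with a number were matched to the titles by abbreviation and number; the labels do not spell these abbreviations out, and all values rest on this match. Pairs of groups were compared by the F test with Benjamini-Hochberg adjustment over 11199 genes. SEs are those implied by the test, and intervals are at 95%. CPM values use the TMM scale, their logarithms a prior count of 2. A level of 3 counts was taken as the floor (0.269 to 3.73 CPM, for counting error only). Squared differences between replicates were 2.31 to 200 times counting error. The fit was tested on simulated data, with 100 genes changed 2-fold and 100 changed 4-fold per comparison. It recovered 25% of the 2-fold and 81% of the 4-fold changes in Atg7-KO against cont, with 5 false calls. In S351A against cont it recovered 10% and 66% (3 false calls), and in S351A against Atg7-KO 17% and 71% (8 false calls). Positions come from GENCODE M21 and promoters from RefSeq.

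Same-numbered libraries deviated together by r over 0.1 in every pair of S351A against cont (0.235, 0.175 and 0.160), but not of Atg7-KO against cont (0.248, 0.0913 and -0.0415) or S351A against Atg7-KO (0.306, 0.0738 and 0.0919). Alternatives were RLE and total scaling, scaling without the 20 genes with most counts, other filters, DESeq2 1.42.0, limma 3.58.1 (voom), the compared libraries alone, a replicate block, sex as a covariate, thinning and leaving out each library.

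The 9 genes and the lists were chosen with earlier results of these data known. Named besides them were 8 set partners, the called genes with the largest rise and fall of each pathway list in each comparison (at least 10 CPM in the higher group), the 5 genes most like the median of the 9, and Atg7. Other genes named as called were chosen after their values were seen. Livers with other p62 alleles were not analysed here, and 2 genes of the lists are not reported here.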

Additional observations from a re-analysis of the deposited data

How the results depend on the processing

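Ass1, Asl, Cps1 and Otc were called lower than in cont in both comparisons under each alternative that was run. Scaling by total counts moved the median of all genes up by 0.547 for Atg7-KO and 0.496 for S351A, each against cont, and scaling without the 20 genes with most counts moved it by 0.358 and 0.325. The median of the 9 genes then became -0.718 and -0.908 in Atg7-KO against cont and -0.450 under total counts in S351A against cont, but relative to all genes it stayed at -1.23, -1.23 and -0.92 (before, -1.23 and -0.94). Under total counts 6 of the 9 genes were called lower in Atg7-KO against cont, Nags and Slc25a13 being lost, and Glud1 was called higher (0.69, adjusted p = 0.0289), and without the 20 top genes 7 were called lower, Slc25a13 being lost. Atg7 itself lost its call in both scalings and after thinning in Atg7-KO, and under total counts in S351A. In S351A against cont 4 of the 9 genes were called under total counts, without the 20 top genes or with the 6 compared libraries alone. Leaving out 1 library gave 4 to 8 calls and medians from -1.51 to -0.805 there, 7 to 8 calls and medians from -1.40 to -1.14 in Atg7-KO against cont, and 0 calls with medians from -0.035 to 0.45 in S351A against Atg7-KO.

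The replicate block gave 8, 8 and 0 calls among the 9 genes in the 3 comparisons, with medians of -1.25, -0.98 and 0.20, and changed no call of the 9.

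Estimates near 0 changed sign. Cps1 in S351A against Atg7-KO was -0.027 under total counts, -0.012 without the 20 top genes, -0.040 without a filter, -0.011 with 10 counts in every library, -0.081 by limma-voom, -0.10 with the replicate block, -0.042 with sex as a covariate and -0.010 after thinning, and -0.36 to 0.31 without 1 library. Leaving out 1 library also turned Otc (-0.035 to 0.45), Nags (-0.28 to 0.50) and Slc25a13 (-0.19 to 0.15) in that comparison, Glud1 (-0.068 to 0.26), Slc25a12 (-0.16 to 0.28) and Cebpb (-0.68 to 0.048) in Atg7-KO against cont, and Slc25a12 (-0.030 to 0.44) and Cebpb (-0.68 to 0.17) in S351A against cont. Under total counts and without the 20 top genes, in this order, Glud1 was 0.28 and 0.11 and Cebpb 0.21 and 0.068 in S351A against cont, and Slc25a12 was 0.55 and 0.33 in Atg7-KO against cont. Slc25a12 was 0.022 there with the 6 libraries alone and 0.034 with the block. Under total counts Cebpa and Cebpb were 0.13 and 0.12 in Atg7-KO against cont. Slc25a12 and Slc1a2 gave no value with 10 counts required in every library, nor did Slc25a12 after thinning, since they were then removed as low. The causes of the other changes were not tested. The S351A libraries held 713835 to 792366 counts, with 18 to 48 for Nags, and depth cannot be told apart from the p62 mutation in them.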
